A study of Mus musculus with 80 samples.

Results

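The clustered protocadherins were described in single neurons of the adult mouse striatum. They were taken as every gene of the expression table whose symbol is Pcdha, Pcdhb or Pcdhg, with A, B or C where the gene has a subtype, followed by a number. The rule found 51 of the 25160 genes: 11 alpha variable isoforms, 2 alpha C-type isoforms, 20 beta isoforms, 12 gamma A isoforms, 5 gamma B isoforms and 1 gamma C-type isoform. The cells came from the dorsomedial striatum of adult mice heterozygous for both Drd1a-TdTomato and Drd2-EGFP, 2 reporters that mark neurons by the transcription of a dopamine receptor gene. Of 80 single cells sorted by fluorescence, 40 carried the Drd1 label and 40 the Drd2 label, and both groups came from mice of the same double reporter genotype without treatment in the labels. The sort itself used the reporters, so a reporter-positive cell need not be a medium spiny neuron. The paper did not obtain usable data from every one of the 80 cells it tried to sequence. It also left 2 Drd2-EGFP cells, identified as cholinergic interneurons, out of its analyses of the neuron subtypes. All 80 cells of the expression table were kept here. The labels give no animal for any cell. Each group therefore counted as 1 sample, the cells were not replicates, and no test between the groups was made.

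Clustered protocadherins are cadherin-like cell surface proteins that bind the same isoform on a facing membrane. Each neuron is known to switch on its own subset through a choice among many promoters, which involves DNA methylation, CTCF and cohesin, and the subset lets a neuron tell its own branches from those of other cells. An alpha or gamma isoform joins its own variable first exon to constant exons that all isoforms of that cluster share, whereas a beta isoform is encoded by its own gene with no shared constant exon. C-type isoforms lie at the end of the alpha and gamma clusters and are regarded as less subject to the random choice.

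The 3 clusters lie side by side on mouse chromosome 18 (GENCODE M21 annotation of build GRCm38). The alpha genes span 36930184 to 37187661, the beta genes 37264938 to 37524479 and the gamma genes 37661793 to 37841873. All 51 symbols were found in this annotation, which holds 57 symbols of this form. The other 6, Pcdhb1, Pcdhb2, Pcdhgb2, Pcdhgb8, Pcdhgc3 and Pcdhgc4, were not analysed here. The 13 alpha genes shared exons of 59, 89 and 2712 bases, and the 22 gamma genes exons of 59 and 89 bases, with a further exon of 1971 bases in 17 of them and at least 2116 shared bases in each. Reads from those exons fit every isoform of the cluster, and how they were divided among isoforms is not given in the sources used here. The paper reports a bias of signal toward the 3' end of transcripts, where those exons lie. Single alpha and gamma values are therefore less certain than the sum of a cluster. Among the beta genes the annotation gave shared bases only for Pcdhb21 and Pcdhb22, which overlapped by 455 bases.

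Values were TPM, transcript abundances scaled per transcript length, which keep no read depth, so the depth behind each value was unknown. The columns did not sum to the same total, so a limit of 1 TPM was not the same share of every column. An isoform was counted as detected in a cell above 1 TPM, and a value of 0 means only that the gene was listed at 0. The number of genes above 1 TPM was 648 to 8657 in Drd1 cells (median 5722) and 1215 to 10912 in Drd2 cells (median 4946). The 7 markers of striatal projection neurons were each above 1 TPM in 70 to 80 cells, Ppp1r1b (DARPP-32) in all 80. The summed Drd1-type markers had a median of 2565 TPM in Drd1 cells and 28.1 TPM in Drd2 cells, and the summed Drd2-type markers 11.9 and 10610 TPM. A set of 7 cells stood apart: 2 Drd2 cells with Chat, the acetylcholine-synthesising enzyme of interneurons, at 307 and 347 TPM, 4 Drd1 cells with Drd1 itself under 10 TPM, of which 1 had the fewest genes of its group, and the Drd2 cell with the fewest genes. Among the low-Drd1 cells, 1 held 14105 TPM of summed astrocyte markers, against a median of 1.36 TPM over Drd1 cells and 0.771 TPM over Drd2 cells, and Gfap was not analysed here. Summed oligodendrocyte markers had medians of 2.86 TPM in Drd1 and 3.36 TPM in Drd2 cells and summed microglial markers 0.340 and 0.101 TPM. Of 2 endothelial genes in the table, Pecam1 was above 1 TPM in all 80 cells and Flt1 in 6. The 3 markers of cortical excitatory neurons summed to medians of 0.567 and 0.196 TPM. The rule for low receptor was applied to Drd1 cells only: 17 Drd2 cells had Drd2 under 10 TPM, 11 of them at 0, and they were kept. The 7 cells stayed in the values below, and the leading values are also given without them.

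Nearly every cell expressed a few clustered protocadherins. Drd1 cells had 0 to 10 isoforms above 1 TPM, with a median of 4.5, and Drd2 cells had 0 to 12, with a median of 4. At least 1 isoform was detected in 39 of 40 Drd1 cells (97.5%, exact Clopper-Pearson 95% interval 86.8 to 99.9%) and in 37 of 40 Drd2 cells (92.5%, 79.6 to 98.4%). The intervals overlap and cover counting error only. Without the 7 cells that stood apart the medians were 5 in Drd1 and 4 in Drd2 cells, and without all cells of either group under 10 TPM of their own receptor they were 5 and 5. With every column rescaled to the same total they were 5 and 4. The largest numbers, 11 and 12, belonged to the 2 Drd2 cells with high Chat, which also had the most genes (10251 and 10912). The map of isoforms by cell shows few lit squares per column and a single gamma isoform lit in most columns.

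**Figure D1:**
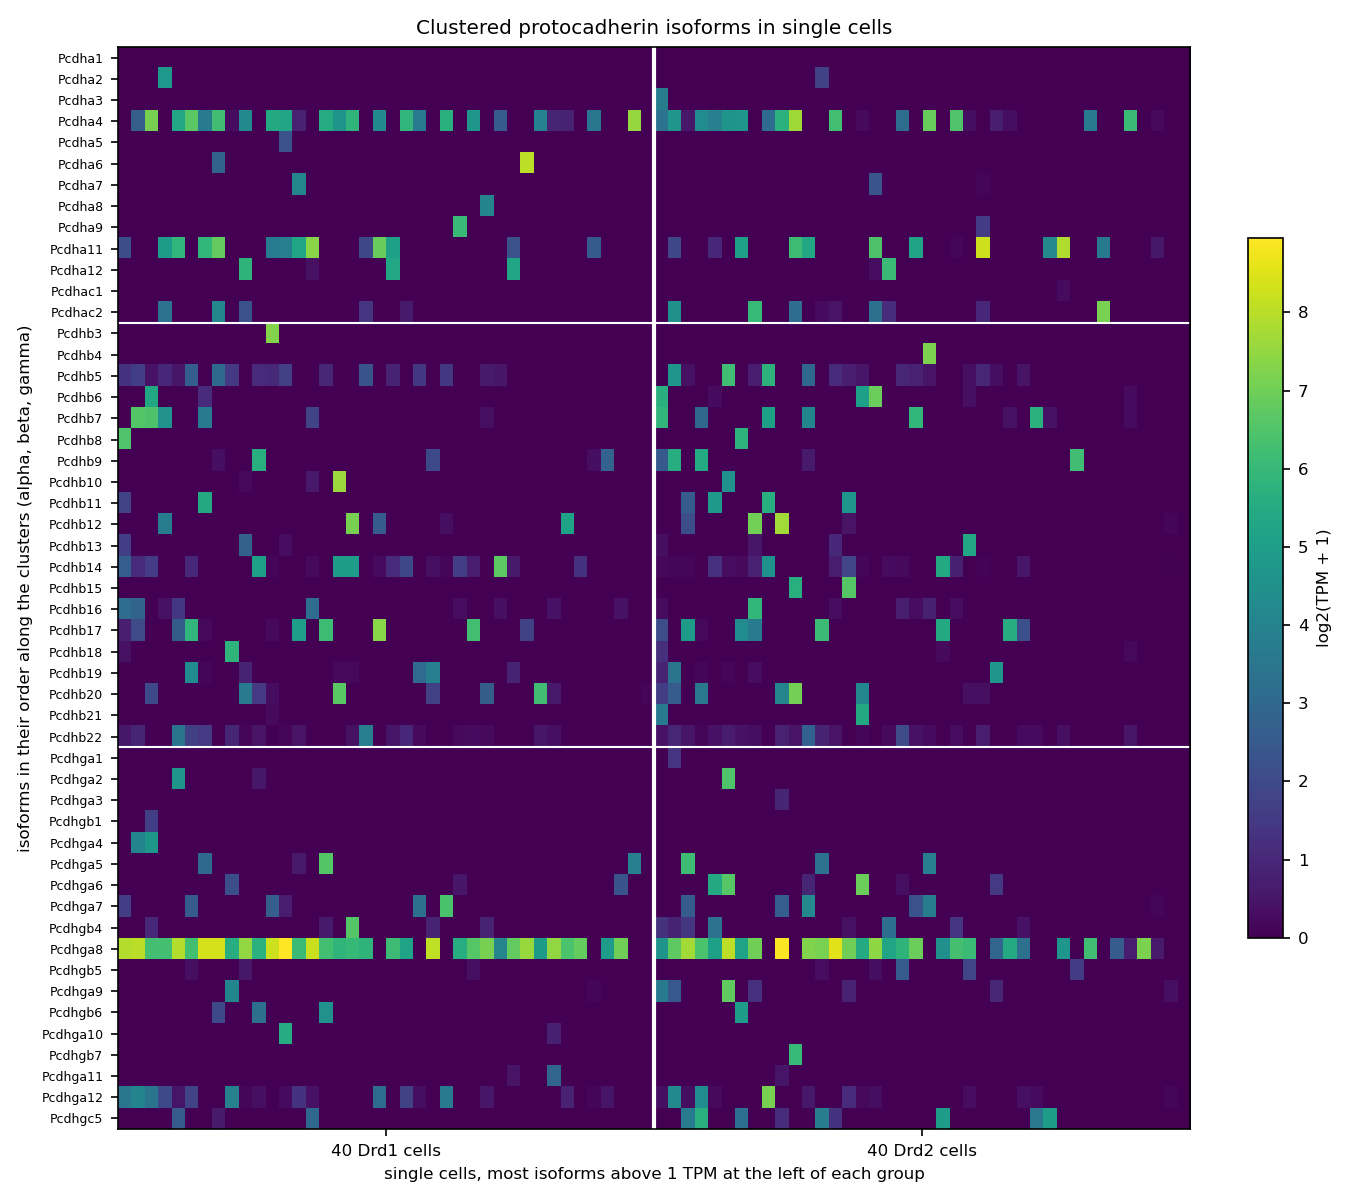
Level of each of the 51 isoforms (rows, in order along the alpha, beta and gamma clusters, separated by white lines) in each of 40 Drd1 and 40 Drd2 cells (columns), as log2(TPM + 1). Most squares are dark, Pcdhga8 is lit in 62 cells, and Pcdha4 and Pcdha11 are the next most frequent.

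The number of isoforms moved with the number of genes detected. In the 27 cells with the fewest genes (648 to 4672) the median was 2 isoforms in both groups. In the next 26 cells it was 4 in Drd1 and 6 in Drd2 cells, and in the 27 cells with the most genes 6 and 5. The 27 cells with the fewest genes were 9 Drd1 and 18 Drd2 cells, and without them the median was 5 isoforms in each group. Spearman's rho between isoforms and genes was 0.66 over 80 cells (0.67 in Drd1, 0.65 in Drd2 cells), a description only, since both numbers come from the same library. By cluster rho was 0.60 for beta, 0.59 for gamma and 0.24 for alpha isoforms. Within the plates the medians were 5 and 5 on FACS051_5 and 4 and 4 on FACS086_4, and the remaining plate held 4 cells. The part that detection plays in the isoform number was not tested.

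**Figure D2:**
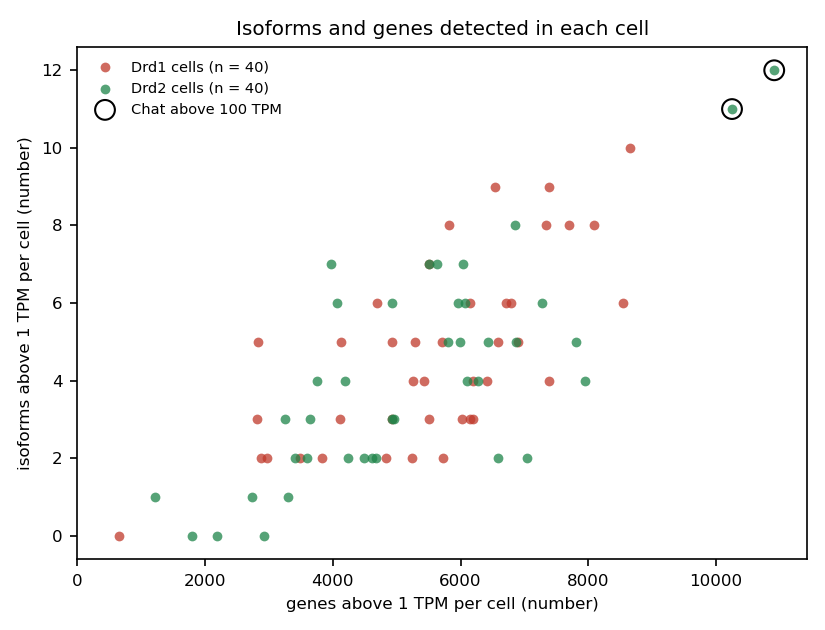
Isoforms above 1 TPM (vertical axis, number) against genes above 1 TPM (horizontal axis, number), 1 point per cell, with 40 Drd1 cells in red and 40 Drd2 cells in green. Both groups rise from 0 isoforms near the left to 10 or more at the right, and the circled points are the 2 Drd2 cells with Chat above 100 TPM.

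Most cells drew on all clusters. Of 80 cells, 45 had alpha, beta and gamma isoforms together, 28 of them Drd1 and 17 Drd2 cells. Beta and gamma without alpha was seen in 16 cells, alpha and gamma without beta in 7, and a single cluster in 8, made up of 4 cells with alpha and 4 with gamma. No cell had beta isoforms without gamma. Gamma isoforms were detected in 38 Drd1 cells (95.0%) and 34 Drd2 cells (85.0%), beta isoforms in 34 (85.0%, 70.2 to 94.3%) and 27 (67.5%, 50.9 to 81.4%), and alpha isoforms in 31 (77.5%, 61.5 to 89.2%) and 25 (62.5%, 45.8 to 77.3%). The beta and alpha intervals overlap between groups. Exactly 1 alpha isoform was present in 34 cells, exactly 1 beta isoform in 27 and exactly 1 gamma isoform in 30.

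Summed over all isoforms, the level was 0.117 to 596 TPM in Drd1 cells (median 185) and 0 to 763 TPM in Drd2 cells (median 181), so the groups overlapped over nearly their whole range. The log2 ratio of the group means, Drd1 over Drd2 with 1 TPM added to each, was 0.21. It was 0.68 on plate FACS051_5 and -0.19 on FACS086_4, opposite in direction. The alpha sum behaved likewise, with medians of 43.1 and 16.4 TPM and a log2 ratio of 0.18 that was 1.62 on the one plate and -0.78 on the other. The beta sum had medians of 17.9 and 38.9 TPM and a log2 ratio of -0.17 (0.05 and -0.48). Among these sums the gamma sum alone had the same direction on both plates, with medians of 94.7 and 66.7 TPM and log2 ratios of 0.39 over all cells and 0.62 and 0.24 on the plates.

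Single isoforms were sparse. Of 51 isoforms 48 passed 1 TPM in some cell, the median isoform in 4 cells, against 9 cells for the median of all 25160 genes. At most 2 cells were reached by 24 isoforms (47.1%, against 27.1% of all genes), and at least 20 cells by 3 isoforms (5.88%, against 32.5%). Where it was on, the median isoform stood at 18.04 TPM, beside 15.3 TPM over all genes. Pcdha1, Pcdhac1 and Pcdhga3 passed 1 TPM in no cell, with highest values of 0.000729, 0.192 and 0.88 TPM. Detection in both groups was found for 33 of the 48 isoforms, in Drd1 cells alone for 8 and in Drd2 cells alone for 7. Of the 23660 genes above 1 TPM in some cell, these numbers were 18669, 2429 and 2562.

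**Figure D3:**
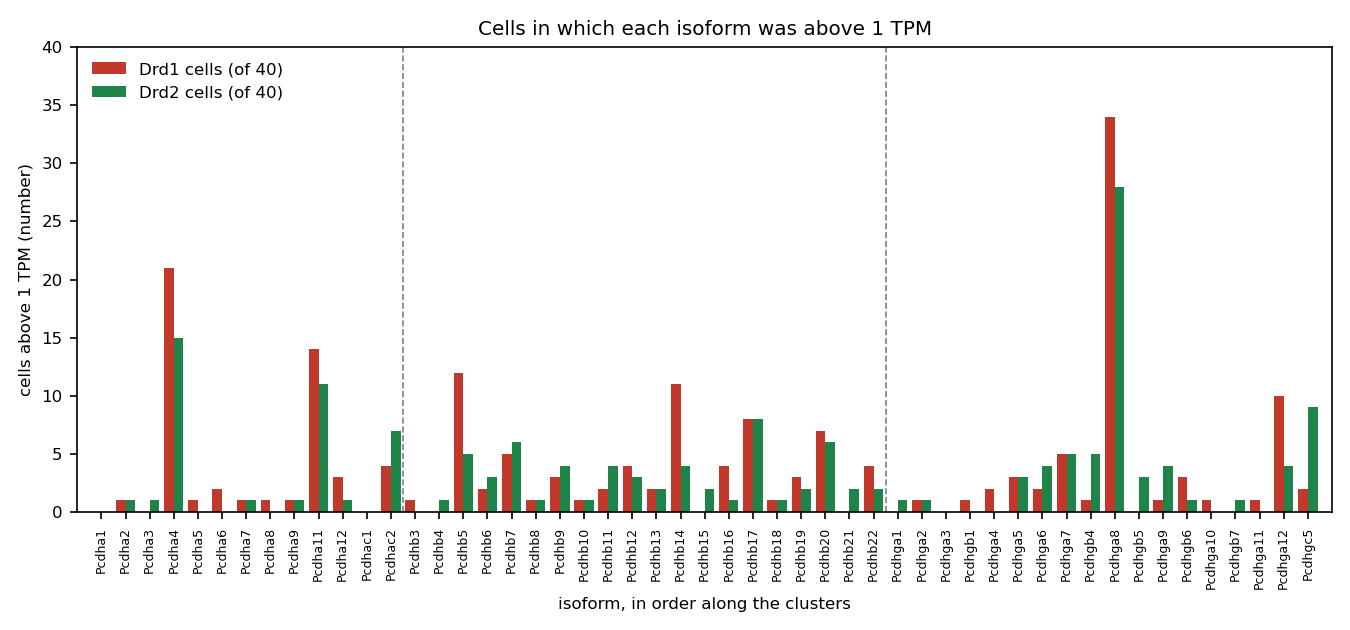
Number of cells above 1 TPM (vertical axis) for each isoform in order along the clusters (horizontal axis), of 40 Drd1 cells (red) and 40 Drd2 cells (green), with dashed lines between the alpha, beta and gamma clusters. Pcdhga8 reaches 34 and 28 cells, Pcdha4 21 and 15, Pcdha11 14 and 11, and no beta isoform exceeds 12 cells of a group.

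Among the variable alpha isoforms, Pcdha4 and Pcdha11 led. The annotation holds 2 gene models with the symbol Pcdha11, with 7174 exon bases of their own against 2346 to 2904 for the other variable alpha isoforms, so its value may pool more than 1 isoform. Pcdha4 was on in 21 Drd1 cells at 5.03 to 185 TPM (median 38.3) and in 15 Drd2 cells at 7.78 to 200 TPM (median 24.6). Pcdha11 was on in 14 Drd1 cells at 2.79 to 162 TPM (median 31.2) and in 11 Drd2 cells at 1.03 to 309 TPM (median 34.8). The levels of both isoforms overlapped between the groups. Their log2 ratios of means turned with the plate, from 1.17 to -0.23 for Pcdha4 and from 1.76 to -1.87 for Pcdha11. In 11 cells both were on, in 25 Pcdha4 alone and in 14 Pcdha11 alone. Together they made up 78.1% of all alpha TPM, and in 39 of the 50 cells that had either they exceeded 90% of the alpha sum. How reads of the shared alpha exons were divided is not known, so these shares are less certain than the alpha sum.

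The other variable alpha isoforms appeared in 4 cells or fewer, often at high level. Pcdha12 was on in 3 Drd1 cells at 37.7, 38.9 and 56.0 TPM and in 1 Drd2 cell at 67.6 TPM. Pcdha6 was on in 2 Drd1 cells, at 6.19 and 263 TPM, and listed at 0 in all Drd2 cells. The cell at 263 TPM was 1 of the 4 Drd1 cells with Drd1 under 10 TPM, and Pcdha6 was its only alpha isoform.

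The C-type isoforms differed from each other. Pcdhac1 was near 0 throughout. Pcdhac2, known for its role in spacing serotonergic axons, was on in 4 Drd1 cells at 1.60, 3.75, 9.09 and 17.0 TPM and in 7 Drd2 cells at 1.002 to 142 TPM (median 8.80). The Drd1 values lie inside the Drd2 range. The log2 ratio of means was -1.99, and -1.02 without the highest cell, a Drd2 cell in which Pcdhac2 was the main isoform.

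Pcdhgc5, the single gamma C-type isoform of the table and a known partner of GABA-A receptors, showed the largest gap in cell share toward Drd2. It was on in 2 Drd1 cells (5%), at 4.99 and 7.03 TPM, and in 9 Drd2 cells (22.5%) at 1.20 to 48.0 TPM (median 12.02). Of the 9 Drd2 cells 6 exceeded 10 TPM and no Drd1 cell did. The exact intervals of the shares, 0.611 to 16.9% and 10.8 to 38.5%, overlap. The log2 ratio of means was -1.89, with -1.90 on FACS051_5, -2.04 on FACS086_4 and -1.51 without the highest cell. On FACS051_5 it was on in 2 Drd1 and 6 Drd2 cells of 18 each, and on FACS086_4 in 0 of 21 and 3 of 19. None of the 7 cells that stood apart had it. Without the 27 cells with the fewest genes, 2 Drd1 and 5 Drd2 cells remained. A limit of 17.5 points was then taken from the largest gap among the isoforms themselves, so Pcdhgc5 reached it by construction. A share at least that much higher in Drd2 cells was seen for 1.52% of the 23660 genes above 1 TPM in some cell. Of the 48 isoforms Pcdhgc5 alone did so. Pcdhac2 and Pcdhgc5, each on in 11 cells, were never on in the same cell, and 58 cells had neither. Among the beta isoforms, on in a median of 5 cells, 112 of 190 pairs were also never on together. Most beta isoforms were on in fewer cells than Pcdhac2 and Pcdhgc5, so those pairs are not a like comparison.

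Beta isoforms, each with its own gene and so free of the shared constant exons, were more evenly used. All 20 were detected, in 1 to 17 cells each (median 5), and none in 20 or more. Pcdhb17 was on in 8 Drd1 cells at 2.36 to 162 TPM (median 44.7) and in 8 Drd2 cells at 3.32 to 67.1 TPM (median 23.8), the same number in each group. It was also the highest beta isoform in 10 of 61 cells with any, more often than any other. Pcdhb12, on in 7 cells, had the highest beta value, 208 TPM in a Drd2 cell.

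At the limit of 1 TPM, Pcdhb14 and Pcdhb5 were detected in more Drd1 than Drd2 cells. Pcdhb14 was on in 11 Drd1 cells at 1.11 to 102 TPM (median 2.88) and in 4 Drd2 cells at 1.37, 2.69, 22.5 and 42.1 TPM. The Drd2 values lie inside the Drd1 range, and the log2 ratio of means was 1.17, with 1.89 and 0.80 on the plates and 0.46 without the highest cell. Pcdhb5 was on in 12 Drd1 cells at 1.04 to 7.30 TPM (median 1.79) and in 5 Drd2 cells at 1.10, 6.98, 25.6, 54.7 and 71.9 TPM. For Pcdhb5 the share of cells was thus higher in Drd1 while the mean was higher in Drd2 (0.870 against 4.16 TPM, log2 ratio -1.46, and -0.87 without the highest cell). On FACS051_5 Pcdhb5 was on in 2 Drd1 and 2 Drd2 cells of 18 each. On FACS086_4 it was on in 9 of 21 and 2 of 19, where the median gene numbers were 5730 and 4617. Cells with Pcdhb5 had a median of 6197 genes and the others 5239, and the part of detection was not tested. The Pcdhb5 value of 25.6 TPM came from a Drd2 cell with Chat at 307 TPM. A share at least 17.5 points higher in Drd1 cells was seen for 4.40% of the 23660 genes above 1 TPM in some cell. Among the 48 isoforms it was seen for Pcdhb14 and Pcdhb5. That limit was the largest gap among the isoforms, so these 2 reached it by construction. Low values were common for both: Pcdhb14 was above 0 in 37 cells and above 1 TPM in 15, and Pcdhb5 in 34 and 17. Counted above 0 TPM, each was found in nearly equal numbers of Drd1 and Drd2 cells. Above 5 TPM, more Drd1 cells still had Pcdhb14, while more Drd2 cells had Pcdhb5. The gap in cell share thus depended on the limit.

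**Figure D4:**
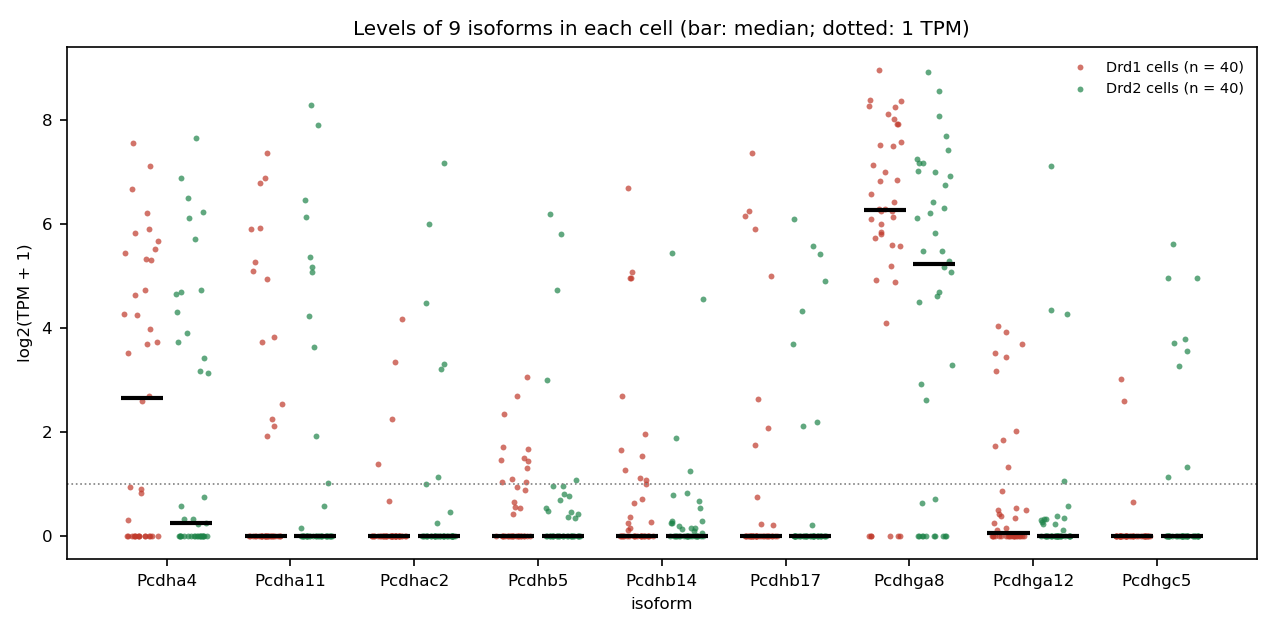
Level of 9 isoforms in each cell as log2(TPM + 1), with Drd1 cells in red and Drd2 cells in green (40 each), black bars at the medians and a dotted line at 1 TPM. Only Pcdhga8 has a median above the line in both groups, while the Pcdhb5 points of Drd2 cells include the 3 highest and Pcdhgc5 is above the line in 2 Drd1 and 9 Drd2 cells. Of those 3 Pcdhb5 points, 1 is from a Drd2 cell with Chat at 307 TPM.

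Among the gamma A isoforms Pcdhga8 stood far above the rest. It was on in 34 Drd1 cells at 15.98 to 492 TPM (median 89.2) and in 28 Drd2 cells at 5.07 to 480 TPM (median 75.2), and the ranges overlapped almost fully. The group means were 121 and 76.4 TPM, a log2 ratio of 0.66 (0.78 and 0.69 on the plates, 0.54 without the highest cell). Among the isoforms analysed, Pcdhga8 was the highest of 40 of the 76 cells with any isoform. It made up 82.6% of the TPM summed over the 18 gamma isoforms analysed. Pcdhgb2, Pcdhgb8, Pcdhgc3 and Pcdhgc4 were not analysed here and are not part of that sum. How reads of the shared gamma exons were divided is not known, so these values are less certain than the gamma sum. Cells with Pcdhga8 had a median of 5976 genes and the others 3738, and the part of detection in its share of cells was not tested. It was not alone in the cluster, because 50 cells had another gamma isoform, 10 of them without Pcdhga8.

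Pcdhga12 was on in 10 Drd1 cells at 1.497 to 15.3 TPM (median 8.90) and in 4 Drd2 cells at 1.08, 18.3, 19.3 and 137 TPM. As for Pcdhb5, more Drd1 cells had it but the higher values lay in Drd2 cells, and the log2 ratio of -0.84 became 0.57 without the highest cell. The value of 18.3 TPM came from a Drd2 cell with Chat at 307 TPM, the same cell that held Pcdhb5 at 25.6 TPM. Pcdhga7 was on in 5 Drd1 cells at 2.14, 4.86, 5.47, 8.91 and 82.9 TPM and in 5 Drd2 cells at 3.78, 5.06, 5.41, 12.5 and 17.6 TPM. These values interleaved, apart from the one at 82.9 TPM.

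No gamma B isoform was on in more than 6 cells. Pcdhgb4 was on in 1 Drd1 cell at 92.2 TPM and in 5 Drd2 cells at 1.49, 1.52, 1.67, 8.35 and 9.45 TPM. The share of cells was higher in Drd2 and the mean in Drd1, and the log2 ratio of 1.08 became -0.56 without that Drd1 cell. Pcdhgb6 was on in 3 Drd1 cells at 2.96, 8.78 and 22.3 TPM and in 1 Drd2 cell at 28.8 TPM. Pcdhgb5 was on in 3 Drd2 cells only, at 1.97, 2.69 and 4.93 TPM.

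Counted over the family, gaps between the groups ran in both directions. A share of cells at least 10 points higher in Drd1 was seen for 5 of 48 isoforms: Pcdha4, Pcdhb5, Pcdhb14, Pcdhga8 and Pcdhga12. Of the 23660 genes above 1 TPM in some cell, 15.6% did so. A share at least 10 points higher in Drd2 was seen for 2, Pcdhgb4 and Pcdhgc5, where 7.33% of the same 23660 genes did so. Of the 36 isoforms above 0 in both groups, 5 had a log2 ratio of means above 1 and 8 a ratio below -1. Of the 20396 genes above 0 in both groups, 12.9% and 10.5% did so. The median log2 ratio was 0.09 over these isoforms and 0.03 over these genes. Such ratios often rested on 1 cell, as for Pcdhb10, at 195 TPM in 1 Drd1 cell and 22.0 TPM in 1 Drd2 cell, whose 1.93 became -0.61 without the former. The largest ratio, -2.66 for Pcdhga6, came from 4 Drd2 cells at 1.82, 41.4, 96.4 and 121 TPM and 2 Drd1 cells at 3.46 and 3.97 TPM, and was -1.94 without the highest cell. Pcdhb10 and Pcdhga6 were picked for these values after they were seen.

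Almost every cell with an isoform had its own combination above 1 TPM. A set changes whenever 1 isoform crosses that limit, and the part of detection was not tested. The 76 cells with an isoform held 74 different sets, and only Pcdhga8 alone and Pcdhb17 with Pcdhga8 occurred in 2 cells each. Without Pcdhga8, Pcdha4 and Pcdha11, 70 cells held 67 sets. For beta isoforms alone, 61 cells held 46 sets, of which Pcdhb17 by itself was found in 7 cells, Pcdhb14 in 5 and Pcdhb5 in 3. The highest isoform of a cell carried a median of 60.8% of its summed isoform TPM. The Drd1 cell with the most isoforms of its group had Pcdhga8 at 239.6 TPM, Pcdhb8 at 88.5 TPM and 8 further isoforms at 1.48 to 10.4 TPM. In contrast, the Drd2 cell with the highest Pcdha4 lacked Pcdhga8 and had Pcdha4 at 200 TPM and Pcdhb20, Pcdha11, Pcdhgb7, Pcdhb15 and Pcdhac2 at 134.5, 69.2, 62.9, 49.0 and 8.18 TPM.

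Different sets still overlapped, mainly through Pcdhga8. Of the 3160 pairs of cells, 75.0% had at least 1 isoform in common and 1 pair had 6, the most found. The share was 87.2% for pairs of Drd1 cells, 64.0% for pairs of Drd2 cells and 74.4% for mixed pairs, where each cell enters many pairs. Without Pcdhga8 the share fell to 42.1% of all pairs, without Pcdhga8, Pcdha4 and Pcdha11 to 23.6%, and for beta isoforms alone it was 17.2%. Drd1 and Drd2 pairs came to 96.1% and 94.4% without the 27 cells with the fewest genes (9 Drd1 and 18 Drd2 cells). Without the 7 cells that stood apart they were 93.2% and 61.1%, and without all cells low in their own receptor 93.2% and 73.5%. The part of detection was not tested.

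**Figure D5:**
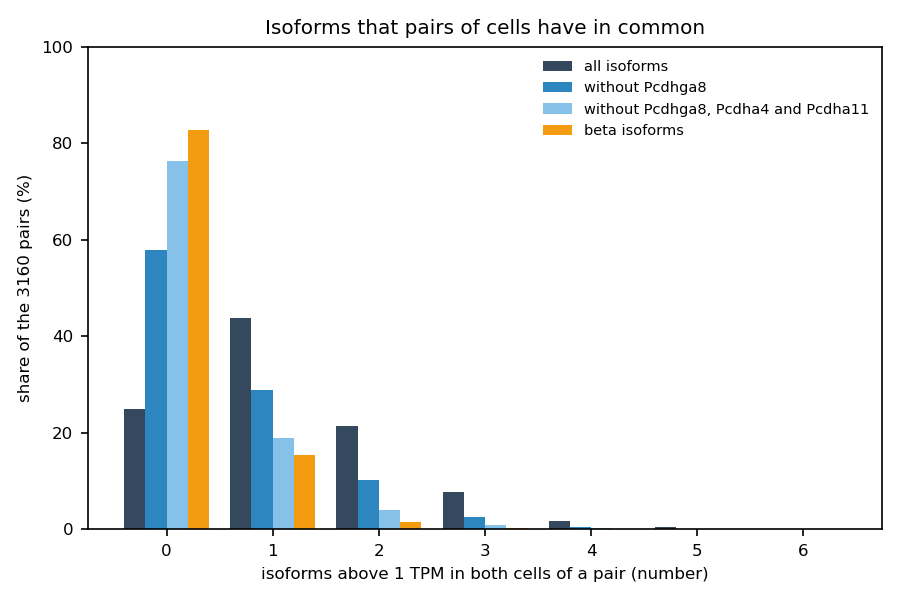
Share of the 3160 pairs of cells (vertical axis, %) by the number of isoforms above 1 TPM that both cells have (horizontal axis), for all isoforms, without Pcdhga8, without Pcdhga8, Pcdha4 and Pcdha11, and for beta isoforms alone. Pairs with no isoform in common make up 25.0% with all isoforms and 82.8% with beta isoforms.

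Beta isoforms next to each other on the chromosome were together about as often as others. Of 190 pairs of beta isoforms, 112 were never on in the same cell and the most frequent pair was together in 5 cells. Adjacent isoforms were together in 0.737 cells on average, against 0.668 over all pairs. The 10 isoforms from Pcdhb3 to Pcdhb12 had 59 detections and the 10 from Pcdhb13 to Pcdhb22 had 70. Pcdhb17 and Pcdhb20, on in 16 and 13 cells, were together in 1 cell.

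Genes known to act in promoter choice were detected more often than the isoforms themselves. Of 14 listed, 12 were in the table, with a median of 39.5 cells. Smchd1, a silencer that acts on these clusters, was on in 57 cells, the DNA methyltransferase Dnmt3a in 55 and the cohesin subunit Smc1a in 54. Of the 12, 1, Dnmt3a, had a log2 ratio above 1 (1.14) and 1, the cohesin subunit Rad21, a ratio below -1 (-1.30). Of the 20396 genes above 0 in both groups, 12.9% and 10.5% did so. Of 18 genes for partners and downstream proteins, the median was on in 53 cells, with the kinase Ptk2b and the actin regulator Wasf1 in 72 and the Wasf1 partner Nckap1 in 70. Of the 18, 1, the protease Adam10, had a ratio above 1 (1.93), and none had a ratio below -1, beside the same 12.9% and 10.5%. Of 12 protocadherins outside the clusters 11 were in the table, with Pcdh10 on in 64 cells, Pcdh17 in 52 and Pcdh7 in 41. The median of these 11 was 6 cells. Of the 10 above 0 in both groups, 3 had a ratio above 1 and none below -1, beside the same 12.9% and 10.5%. Pcdh18 was listed at 0 in all Drd2 cells.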

How the data were processed

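Single cells were sorted into wells, and cDNA was made with the SMARTer v3 kit, which keeps no molecular identifiers. Per the labels the submitters' processing notes name bcl2fastq 2.18, FastQC 0.11.5, STAR 2.5.0, featureCounts 1.5.1 and DESeq2 1.14.1, with build GRCm38. The authors deposited a table of TPM values for 80 cells. The tool that made the TPM values is not given in the sources used here. Columns summed to 506588 to 958040 TPM, and no 2 columns were identical. All were matched to the labels by name.

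Scripts (Python 3.11.15, pandas 2.3.3, scipy 1.17.1) counted isoforms above 1 TPM, gave shares with exact 95% Clopper-Pearson intervals, and took log2 ratios of group means after adding 1 TPM. The log2 ratio step was tested on simulated data, and the count of isoforms that pairs share on a small made-up example. No read counts were used, no test was run, and no doublets were called. Limits of 0, 5 and 10 TPM, pseudocounts of 0.1 and 10 TPM, rescaling every column to 1 total, and leaving out cells or plates were tried.

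The members and gene lists were chosen with earlier results of these data known. Named one by one were the C-type isoforms, the 3 isoforms of each other subtype in the most cells, the 3 with the largest gap in cell share in each direction, the 5 with the highest single value, those above 1 TPM in no cell, and the 3 most frequent genes of each other list. Other genes given with values (Pcdhb3, Pcdhb4, Pcdhb8, Pcdhb10, Pcdhb15, Pcdhb20, Pcdhb22, Pcdhga6, Pcdhgb7, Pcdh18, Rad21 and Adam10) were chosen after their values were seen.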

Additional observations from a re-analysis of the deposited data

How the results depend on the processing

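TPM keep no depth, so a low isoform could not be told from a missed one. Counting every value above 0 TPM raised the median to 6 isoforms in Drd1 and 7 in Drd2 cells, reversing their order. All Drd1 cells (100%) had an isoform above 0 TPM, and also at 1 TPM without the cells that stood apart, without cells under 2000 genes, without plate FACS086_4, without cells under 10 TPM of their own receptor gene and without the 27 cells with the fewest genes. In that last setting all Drd2 cells (100%) had one as well. The settings without those 27 cells, without cells low in their receptor, with a plate block and without named isoforms were chosen after seeing the data. The number of isoforms with a log2 ratio above 1 was 9 with a pseudocount of 0.1 TPM, 0 with 10 TPM and 3 with a mean of at least 1 TPM. The number below -1 was 14 with 0.1 TPM, 0 with 10 TPM and 14 without the 27 cells with the fewest genes. The share of pairs with an isoform in common was 87.5%, 72.7% and 64.8% at 0, 5 and 10 TPM, 78.9% without cells under 2000 genes, 69.6% without plate FACS051_5, 78.3% without FACS086_4, 95.8% without those 27 cells, 85.5% without cells low in their receptor, 42.1% without Pcdhga8 and 23.6% without Pcdhga8, Pcdha4 and Pcdha11. The share of the highest isoform was 80.8% among beta isoforms and 68.2% without those 3. The log2 ratio of summed isoforms was -0.20 without plate FACS051_5, -0.08 without those 27 cells, -0.04 without cells low in their receptor and -0.14 without Pcdhga8, so its sign was not stable. The causes were not tested. No paired analysis was possible because the labels number no replicates and tie no single cell of one group to one of the other. With plate as a block, as the mean of the within-plate log2 ratios of FACS051_5 and FACS086_4, the ratio of summed isoforms was 0.24. The labels do not say whether a plate is 1 animal.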

Other observations

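Pcdhb22, the last gene of the beta cluster, was above 0 TPM in 44 cells but above 1 TPM in 6. Its highest value was 13.3 TPM. Pcdhb3 and Pcdhb4 showed the opposite pattern, with a single cell each, at 155 TPM in a Drd1 cell and 144 TPM in a Drd2 cell, and 0 in all others. These genes were chosen after their values were seen.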
